A study of Mus musculus with 3 samples.

Results

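The 7 genes described here are Reln, which encodes reelin, Ndnf, the transcription factor genes Lhx1, Lhx5, Trp73 and Nhlh2, and the non-coding RNA gene Lhx1os. They were taken by name as rows of 3 single-cell count tables from mouse dentate gyrus, in which all 7 were listed, out of 15535 genes listed in at least 1 table. Single dissociated cells were captured in droplets and the 3' ends of their transcripts sequenced, an assay that counts unique molecular identifiers (UMIs, each standing for 1 captured RNA molecule) per gene and cell barcode. There was 1 library for each group. The runner library came from mice given a wheel for 12 days, the aged library from 14-month-old mice kept without a wheel, and the control library from 8-week-old mice kept under standard housing, of which the runners were littermates. The labels give the strain of all 3 groups as hGFAP-eGFP, a line in which a human GFAP promoter drives green fluorescent protein, while the design text speaks of wild-type animals and gives the reporter only for the aged group. The tissue was digested with trypsin, no cell sort is described, and the sources used here do not say how many mice were pooled in a library. Groups without replicate libraries cannot be tested against each other, and every interval below covers counting error only.

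Cajal-Retzius cells are early-born neurons that line the hippocampal fissure and the outer molecular layer of the dentate gyrus and secrete reelin, a large extracellular glycoprotein. Reelin binds the receptors VLDLR and ApoER2 (encoded by Vldlr and Lrp8) on other cells, which leads to phosphorylation of the adaptor Dab1 by kinases of the Src family, and it is known for its part in neuronal positioning and dendrite growth. Trp73 encodes p73, a relative of p53 on which Cajal-Retzius cells depend in mice, and Lhx1 and Lhx5 encode LIM homeodomain transcription factors. Nhlh2 encodes a basic helix-loop-helix factor, and Ndnf a secreted neurotrophic factor that also marks a class of cortical interneurons. Lhx1os is a long non-coding RNA gene beside Lhx1, with no function assumed here.

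On the mouse build GRCm38, Reln lies at chr5:21884454-22344702 on the minus strand, Ndnf at chr6:65671590-65712326 on the plus strand, Lhx5 at chr5:120431699-120441223 on the plus strand, Trp73 at chr4:154056253-154140208 on the minus strand and Nhlh2 at chr3:102010076-102015492 on the plus strand. Lhx1, at chr11:84518284-84525535 on the minus strand, and Lhx1os, at chr11:84525660-84535831 on the plus strand, start back to back and run apart. The sources used here do not say whether reads were counted by strand. Reads in Reln, Trp73 and Lhx5 could therefore be shared with overlapping annotated genes, which are Gm16111, Gm10475, Gm16112 and Gm16110 on the other strand of Reln and Dnaja1-ps, Gm19666 and Gm16113 on its own, Trp73os and Gm26036 across Trp73, and Gm27199 across Lhx5.

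The sequence between the annotated starts of Lhx1 and Lhx1os (chr11:84525536-84525659, plus strand) is shown because a pair of genes described below begins on either side of it, with its single CCAAT in capitals. The stretches upstream of Reln (chr5:22344706-22344955, minus strand) and of Nhlh2 (chr3:102009895-102010075, plus strand) are shown for the gene that marks the cells and for the one also detected in another cell class, with E-boxes (CANNTG, the short sequence read by basic helix-loop-helix factors) in capitals. All are from RefSeq on GRCm38.p6, hold no annotated exon and are written 5' to 3'.
Lhx1 to Lhx1os: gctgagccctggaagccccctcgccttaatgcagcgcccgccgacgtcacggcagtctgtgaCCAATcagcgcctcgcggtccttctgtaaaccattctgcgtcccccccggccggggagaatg
Reln upstream: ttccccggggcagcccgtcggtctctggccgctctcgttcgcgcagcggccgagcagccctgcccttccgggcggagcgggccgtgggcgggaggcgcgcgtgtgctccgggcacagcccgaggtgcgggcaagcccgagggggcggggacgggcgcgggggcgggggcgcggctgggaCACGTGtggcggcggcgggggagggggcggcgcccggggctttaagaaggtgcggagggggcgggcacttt
Nhlh2 upstream: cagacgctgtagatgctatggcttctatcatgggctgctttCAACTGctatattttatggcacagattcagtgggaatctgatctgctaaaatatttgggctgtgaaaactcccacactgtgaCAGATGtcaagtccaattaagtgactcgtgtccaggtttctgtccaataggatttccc

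Besides the E-box and CCAAT, the motifs searched were the TATA box (TATAAA), the homeodomain core (TAATTA) and the GC box (GGGCGG), on both strands and with overlapping matches allowed. A match is a description of the letters only. The 124 bases between Lhx1 and Lhx1os had a GC content of 66.1% and held 1 CCAAT, as did 22.5% of 27025 RefSeq promoters over a window of that length. The 250 bases upstream of Reln had a GC content of 80.0% and held 1 E-box, present in 66.0% of promoters, and 6 GC boxes, present in 32.9%. The 181 bases upstream of Nhlh2 had a GC content of 43.6% and held 2 E-boxes, present in 54.0% of promoters, and 2 CCAAT, present in 28.3%. The TATA box and homeodomain letters were not in these 3 windows. RefSeq promoter entries matched 5 of the 7 genes, all but Lhx5 and Ndnf.

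Barcodes with at least 200 genes and under 10% mitochondrially encoded UMIs gave 963 runner, 391 aged and 512 control cells, with 1780996, 599961 and 771056 UMIs and medians of 1747, 1409 and 1460 UMIs per cell. Between 8 and 10 barcodes were shared by each pair of libraries, and among the cells used only runner and aged shared any, 2 in all. Cells were clustered without the 7 genes and named from marker lists that did not hold them. Of 15 clusters, 1 of 154 cells was named Cajal-Retzius-like. Of its 14 listed markers, 13 were at least 2-fold higher in it than in all other cells, and the 5 that also reached 25% of its cells were Cacna2d2, Diablo, Slc17a6, Emx2 and Nr2f2. Its leading genes were the neuronal genes Meg3, Snhg11, Stmn2, Stmn1 and Ly6h, with Cacna2d2 the only listed marker among the first 10. Slc17a6, the vesicular glutamate transporter VGLUT2, was found in 49 of the 154 cells. Gad1 and Slc32a1, which mark GABAergic neurons, had UMIs in 0 of 154 cells each, which allows a share of cells with a UMI of up to 1.95%, and Gad2 in 2 cells.

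Cajal-Retzius-like cells were 7.58% of runner cells (73 of 963; 95% interval 5.99 to 9.44%), 8.18% of aged cells (32 of 391; 5.67 to 11.4%) and 9.57% of control cells (49 of 512; 7.16 to 12.5%). The runner share minus the control share was -1.99 percentage points (-5.22 to 0.924), and the aged share minus the control share was -1.39 points (-5.07 to 2.48). Both intervals span 0. The limit on mitochondrially encoded UMIs can set these shares, and all 3 were lower without it, at 2.98% in runner, 1.99% in aged and 3.09% in control libraries. With classes called cell by cell the shares were 6.44% in runner, 5.88% in aged and 6.25% in control libraries, so the runner share was then above the control share. Among cells thinned to 1000 UMIs they were 8.08% in runner, 9.77% in aged and 9.31% in control libraries, with the aged share above the control share.

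The 7 genes were found almost entirely in this cluster, which their own counts had not helped to define. Together they had 1464 UMIs, of which 1379 (94.2%) lay in the 154 Cajal-Retzius-like cells and the remainder in 1712 other cells. All 7 were more than 10-fold higher in Cajal-Retzius-like cells than in the other cells in CPM (the UMIs of a gene per 1000000 UMIs of the same cells), a difference reached by 1.09% of 11297 genes. Since other genes of the same cells made the cluster, this is a description and no test was made.

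**Figure D1:**
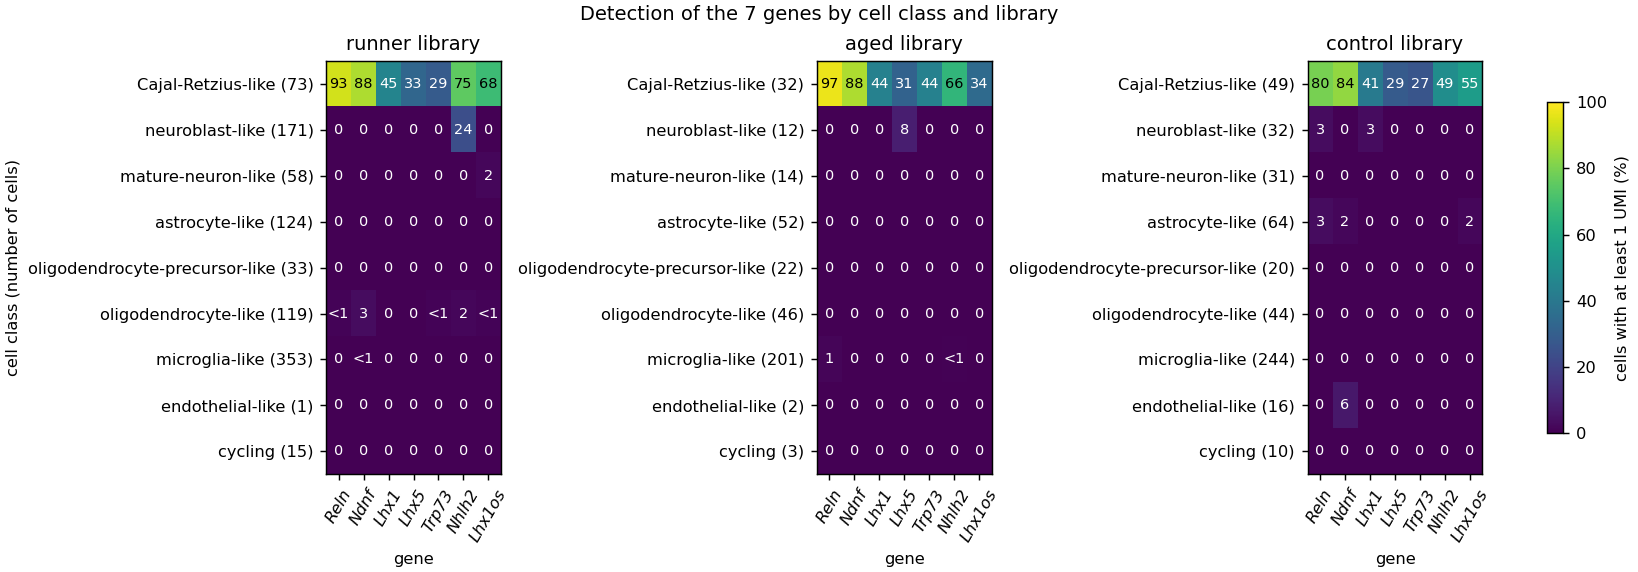
Percentage of cells with at least 1 UMI of each gene (columns) by cell class (rows, with the number of cells; 11 perivascular-macrophage-like and 14 unnamed cells are not drawn), in the runner, aged and control libraries from left to right. The top row holds nearly all of the detection, and the main exception is Nhlh2 in runner neuroblast-like cells, at 24.0%.

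Reln was found in 138 of 154 Cajal-Retzius-like cells (89.6%) and in 7 of 1712 other cells (0.409%), with 395 and 14 UMIs. Its CPM was 358-fold higher in the Cajal-Retzius-like cells (95% interval 211 to 660). Microglia-like cells, which should lack these genes, give the background: 3 of their 798 cells had a Reln UMI, all in the aged library, at a median depth of 1504.5 UMIs against 1503 in Cajal-Retzius-like cells. With classes called cell by cell, 76.5% of Reln UMIs lay in Cajal-Retzius-like cells and the Reln fold was 51.8 (41.1 to 65.8), while those of the other 6 genes lay between 30.0 and 81.1. Reln detection in Cajal-Retzius-like cells was far above the share in a class of the same depth.

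Ndnf, the neurotrophic factor gene, was found in 133 Cajal-Retzius-like cells and 7 others, with 97.8% of its 409 UMIs in the Cajal-Retzius-like cells and a CPM 563-fold higher there (294 to 1241). Lhx1 was found in 67 Cajal-Retzius-like cells and 1 other cell (1445-fold, 254 to 57561). Lhx5 was found in 48 Cajal-Retzius-like cells and 1 other cell, an aged neuroblast-like cell (786-fold, 136 to 31531). Each of these ratios with 1 UMI outside the class has an interval that spans more than 2 orders of magnitude, so their order says nothing.

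Trp73 was found in 48 Cajal-Retzius-like cells and 1 other cell, which was oligodendrocyte-like and in the runner library (760-fold, 131 to 30530). Lhx1os was found in 88 Cajal-Retzius-like cells and 3 others (646-fold, 217 to 3169). Lhx1, Lhx5, Trp73 and Lhx1os each had UMIs in 0 of 798 microglia-like cells, which allows a share of cells with a UMI of up to 0.376%. Nhlh2 stood apart from the other 6 genes, with 100 Cajal-Retzius-like cells and 44 others, 77.7% of its UMIs in Cajal-Retzius-like cells and a CPM 44.1-fold higher there (32.6 to 60.5). The interval for Nhlh2 lies below those of the other 6.

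Reelin is also made by a group of GABAergic interneurons in the adult hippocampus, and Ndnf by some of them. In the cells used, 37 had a UMI of Gad1, Gad2 or Slc32a1, of which 24 were mature-neuron-like and 2 Cajal-Retzius-like. Both of these Cajal-Retzius-like cells had Reln. None of the 7 genes had a UMI in the 35 others, at a median of 2312 UMIs, which allows a share of cells with a UMI of up to 8.57%. Outside the Cajal-Retzius-like class Gad1 was found in 29 cells, Gad2 in 5 and Slc32a1 in 1, and no cluster took the GABAergic name. Whether these 35 cells were interneurons was not tested, so the absence of the 7 genes cannot be read as a result about interneurons.

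The genes were also detected together in the same cells. Of the 154 Cajal-Retzius-like cells, 149 (96.8%, 92.6 to 98.9%) had at least 2 of the 7, against 3 of 1712 other cells (0.175%). Turned round, 149 of the 152 cells with at least 2 of the genes (98.0%) were Cajal-Retzius-like, so joint detection and the clusters made without these genes picked out nearly the same cells. A Cajal-Retzius-like cell had a median of 4 of the 7 genes: 1 cell had 0, 4 had 1, 11 had 2, 37 had 3, 43 had 4, 39 had 5, 15 had 6 and 4 had all 7.

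By library, at least 2 of the genes were found in 72 of 73 runner, 31 of 32 aged and 46 of 49 control Cajal-Retzius-like cells, with a median of 4 in each. The number found moved with depth, from a median of 3 in the 21 Cajal-Retzius-like cells under 1000 UMIs to 5 in the 22 cells of at least 2000. After each cell was thinned to 1000 UMIs, which left out 4 runner, 6 aged and 11 control Cajal-Retzius-like cells, 124 of 133 (93.2%) still had at least 2, against 2 of 1395 other cells.

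**Figure D2:**
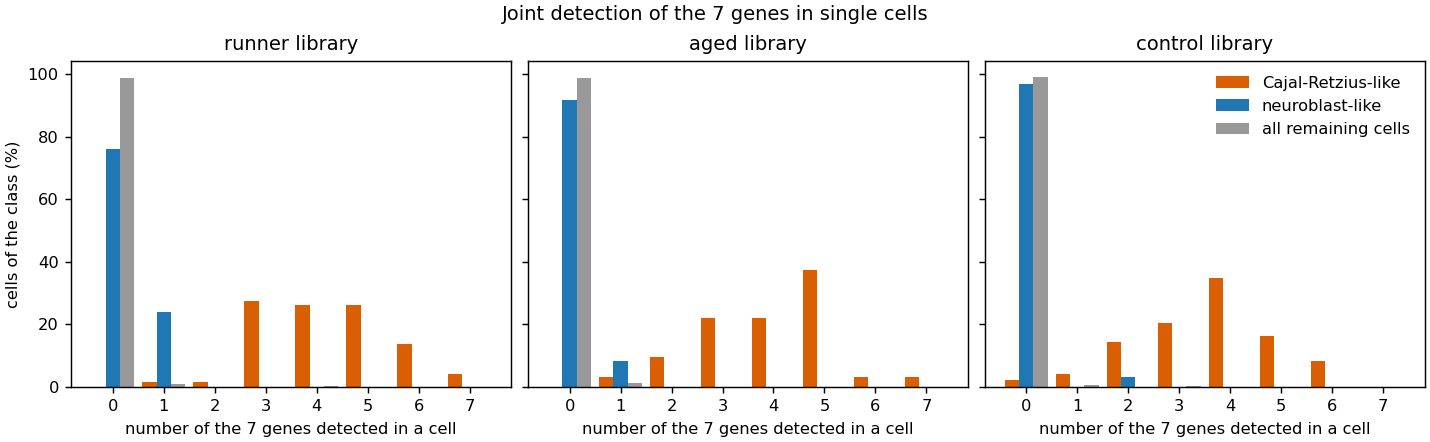
Percentage of the cells of a class (vertical axis) by the number of the 7 genes detected in a cell (horizontal axis), for Cajal-Retzius-like, neuroblast-like and all remaining cells in each library. Cajal-Retzius-like cells centre on a median of 4 genes in every library, while nearly all other cells have 0 and the runner neuroblast-like cells with 1 gene are the 41 cells with Nhlh2.

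A few cells went against their class. The 3 cells outside the Cajal-Retzius-like class with at least 2 of the genes were 1 runner oligodendrocyte-like, 1 control astrocyte-like and 1 control neuroblast-like cell. The runner oligodendrocyte-like cell, with 3959 UMIs, held 7 Reln, 2 Ndnf, 3 Nhlh2 and 1 Lhx1os UMIs beside 11 of 12 oligodendrocyte markers. The control astrocyte-like cell held 2 Reln, 2 Ndnf and 1 Lhx1os UMIs beside 54 Apoe UMIs and 7 of 15 astrocyte markers. The doublet caller had kept both cells, and whether they are doublets was not tested. The control neuroblast-like cell had 1 Reln and 1 Lhx1 UMI, and the control Cajal-Retzius-like cell with none of the 7 genes had 712 UMIs.

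Within the Cajal-Retzius-like cells all 21 pairs of genes occurred together, in 13 cells (Lhx5 with Trp73) to 120 cells (Reln with Ndnf). The divergent pair Lhx1 and Lhx1os, whose shared upstream sequence is given above, showed no excess of joint detection: Lhx1os was found in 38 of 67 cells with Lhx1 (56.7%, 44.0 to 68.8%) and in 50 of 87 cells without it (57.5%, 46.4 to 68.0%). For the LIM homeobox genes, Lhx5 likewise was found in 31.3% of the cells with Lhx1 and 31.0% of those without. For both pairs the shares with and without Lhx1 differed by less than their intervals.

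Trp73 was the gene whose cells held the most of the others. Cells with Trp73 also had Reln in 47 of 48 cases and Lhx1 in 27 of 48 (56.2%, 41.2 to 70.5%), whereas the 106 cells without Trp73 had Lhx1 in 40 (37.7%, 28.5 to 47.7%). These intervals overlap, and depth moved with them, the median being 1653.5 UMIs in cells with Trp73 against 1409.5 in cells without. The part of depth in this difference was not tested.

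**Figure D3:**
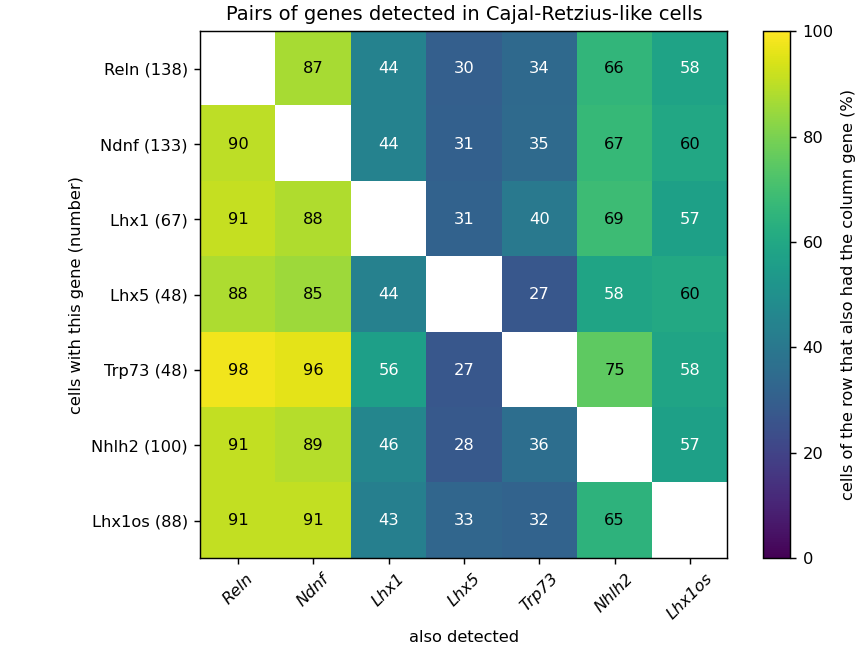
Percentage of the Cajal-Retzius-like cells with the row gene (number of cells in brackets) that also had the column gene. The Reln and Ndnf columns are the highest in every row, and the Trp73 row holds the highest value for Reln, Ndnf, Lhx1 and Nhlh2.

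Across the 3 groups, most of the 7 genes had levels in Cajal-Retzius-like cells that differed by less than the counting error. Levels are compared between libraries for 1 gene at a time and not between genes. The median depth of these cells was 1620 UMIs in runner, 1481 in aged and 1243 in control libraries, and their median mitochondrially encoded share was 3.56%, 5.69% and 5.39%. RNA of other cell types was present in all 3: the 13 microglia markers summed to 318, 322 and 555 CPM in runner, aged and control Cajal-Retzius-like cells, the 15 astrocyte markers to 782, 795 and 1241 CPM, and the 12 oligodendrocyte markers to 497, 344 and 751 CPM. The control sums were the highest, and their part in the values below was not tested.

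Reln had 1605 CPM in runner, 2085 CPM in aged and 1649 CPM in control Cajal-Retzius-like cells, from 197, 97 and 101 UMIs. Per cell the lowest, median and highest Reln counts were 0, 2 and 12 UMIs in runner, 0, 2.5 and 7 in aged and 0, 2 and 8 in control libraries. The runner over control ratio was 0.973 (0.762 to 1.25) and the aged over control ratio 1.26 (0.947 to 1.69), and both intervals hold 1. Under 3 of 11 alternative settings the runner ratio of Reln was above 1, at up to 1.14. The aged over control ratio of Reln lay between 1.10 and 1.37 under these settings. Its interval held 1 in 10 of the 11 and lay above 1 at a mitochondrial limit of 20%. The 11 settings include resolutions 0.5 and 2.0 and clustering with the 7 genes, which returned the same Cajal-Retzius-like cells and so the same ratios. Runner over aged was 0.770 (0.601 to 0.992), an interval that falls just short of 1. Reln was found in 68 of 73 runner, 31 of 32 aged and 39 of 49 control cells, and after thinning to 1000 UMIs in 82.6%, 76.9% and 73.7%. The gap in detection between the libraries was smaller at equal depth.

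Ndnf had 1662, 1677 and 1926 CPM in runner, aged and control Cajal-Retzius-like cells, with ratios to control of 0.863 in runner (0.684 to 1.09) and 0.870 in the aged library (0.645 to 1.17). Without a mitochondrial limit both Ndnf ratios turned, to 1.10 in runner and 1.02 in the aged library. Lhx1 had 497 CPM in runner, 516 CPM in aged and 473 CPM in control cells, with ratios to control of 1.05 in runner (0.664 to 1.69) and 1.09 in the aged library (0.607 to 1.94). After thinning to 1000 UMIs the Lhx1 runner ratio was 1.84, with an interval of 0.944 to 3.84, and Lhx1 was found in 39.1% of runner, 34.6% of aged and 23.7% of control cells. For Lhx5 the levels were 228 CPM in runner, 344 CPM in aged and 294 CPM in control cells, with ratios to control of 0.776 in runner (0.415 to 1.49) and 1.17 in the aged library (0.558 to 2.43). The Lhx5 ratios also turned, to 1.33 in the runner library at a mitochondrial limit of 5% and 0.974 in the aged library after thinning. In Cajal-Retzius-like cells the intervals of Ndnf, Lhx1 and Lhx5 held 1 under all 11 alternative settings.

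Trp73 had 244 CPM in runner, 365 CPM in aged and 212 CPM in control Cajal-Retzius-like cells, from 30, 17 and 13 UMIs. Its aged over control ratio of 1.72 had an interval of 0.788 to 3.86, and its runner over control ratio of 1.15 one of 0.583 to 2.41. Under 11 alternative settings these ratios lay between 1.30 and 3.48 in aged and between 1.02 and 2.25 in the runner library, and every interval held 1. No difference between libraries was detectable for Trp73 at this depth.

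Nhlh2 was higher in the runner than in the control library. It had 978 CPM in runner, 860 CPM in aged and 571 CPM in control Cajal-Retzius-like cells, from 120, 40 and 35 UMIs, and was found in 55 of 73, 21 of 32 and 24 of 49 cells. The runner over control ratio was 1.71 (1.17 to 2.57) and the aged over control ratio 1.5 (0.932 to 2.44). Runner over aged was 1.14 (0.789 to 1.67), an interval that holds 1. At a mitochondrial limit of 5% the aged over control ratio turned to 0.913 (0.427 to 1.90). Under the 11 alternative settings it reached up to 1.78, and its interval held 1 in 9 of them. Thinned to 1000 UMIs, Nhlh2 was found in 44 of 69 runner, 13 of 26 aged and 18 of 38 control cells. The runner over control ratio lay between 1.38 and 1.89 under 11 alternative settings, and its interval held 1 in 3 of them, the thinning, a mitochondrial limit of 5% and classes called cell by cell.

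Lhx1os was lower in the aged library. It had 741 CPM in runner, 344 CPM in aged and 751 CPM in control Cajal-Retzius-like cells, from 91, 16 and 46 UMIs, and was found in 50 of 73, 11 of 32 and 27 of 49 cells. The aged over control ratio was 0.458 (0.242 to 0.824), the runner over control ratio 0.987 (0.685 to 1.44) and the runner over aged ratio 2.16 (1.26 to 3.93). Lhx1, on the other side of the shared upstream sequence, was at 516 CPM in aged and 473 CPM in control cells. Thinned to 1000 UMIs, Lhx1os was found in 47.8% of runner, 34.6% of aged and 47.4% of control cells, and the thinned aged over control ratio had an interval that held 1. Under 11 alternative settings that ratio lay between 0.402 and 0.595.

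**Figure D4:**
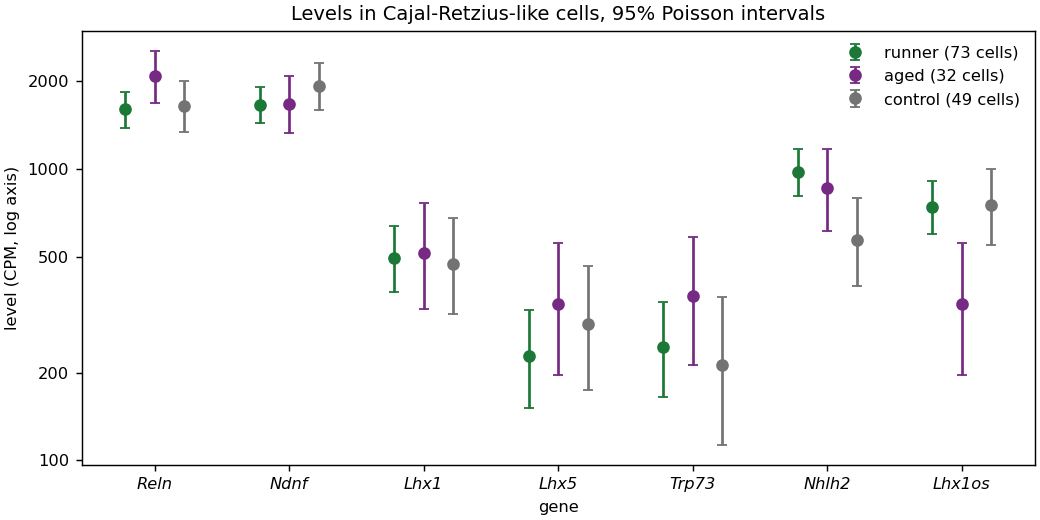
Level of each gene (CPM, logarithmic axis) in Cajal-Retzius-like cells of the runner, aged and control libraries, with exact 95% Poisson intervals that cover counting error only. Nhlh2 is highest in the runner library (978 CPM) and Lhx1os lowest in the aged library (344 CPM), and only for Nhlh2 between runner and control and for Lhx1os between runner and aged do the intervals of a pair of libraries not overlap.

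Counting all genes with at least 20 UMIs in the libraries compared shows how common such differences were. Of the 7 genes, 1 was past 1.5-fold higher (Nhlh2) and 0 past 1.5-fold lower in runner against control Cajal-Retzius-like cells, where 16.4% and 10.1% of 1537 genes were. In aged against control cells, 2 were past 1.5-fold higher (Trp73 and Nhlh2) and 1 lower (Lhx1os), where 13.2% and 17.9% of 811 genes were. Differences of this size were thus frequent among all genes measured in so few cells, and with 1 library a group they have no replicate check. They were less frequent among genes with more counts. In either direction, 26.5% of genes were past 1.5-fold in runner and 31.1% in aged against control cells. With a minimum of 50 UMIs these shares were 16.0% of 538 and 20.5% of 264 genes. Both comparisons share the control library.

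The Nhlh2 signal outside the Cajal-Retzius-like class lay mainly in neuroblast-like cells of 1 library (neuroblasts mature into granule neurons). Nhlh2 was found in 41 of 171 runner neuroblast-like cells (24.0%, 17.8 to 31.1%), in 0 of 12 aged ones, which allows up to 25%, and in 0 of 32 control ones, which allows up to 9.38%. Its level in the runner cells was 150 CPM (112 to 197), 2.20-fold the level that 3 counts in the control library would give. The exact interval of the runner over control ratio started at 1.72. In the aged library 3 counts would give 162 CPM, above the runner level, so no bound is given against it.

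The median depth of neuroblast-like cells was 1979 UMIs in runner, 1451 in aged and 1379.5 in control libraries. Thinned to 1000 UMIs, Nhlh2 was found in 25 of 168 runner, 0 of 10 aged and 0 of 26 control neuroblast-like cells. Without a mitochondrial limit or clusters, among barcodes with Sox11 and Neurod1 and none of the other 6 genes, a selection chosen after seeing the data, it was found in 40 of 144 runner (27.8%), 0 of 7 aged and 0 of 30 control barcodes. Microglia-like cells had Nhlh2 in 1 of 798. Over all cells used, the runner over control ratio of Nhlh2 was 2.16 (1.5 to 3.21), from 175 and 35 UMIs, in a comparison where 15.6% of 10656 genes were past 1.5-fold higher and 9.58% past 1.5-fold lower.

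None of the 41 runner neuroblast-like cells with Nhlh2 had any other of the 7 genes. They had Calb2, the calretinin gene of newborn granule neurons, in 39 (95.1%), against 91 of the 130 runner neuroblast-like cells without Nhlh2 (70.0%). Tac2, a tachykinin gene, was found in 63.4% of the runner neuroblast-like cells with Nhlh2 and 46.2% of those without. Eomes, a marker of intermediate progenitors, was found in 7.32% and 14.6%, from 3 and 19 cells. Of the other markers on the neuroblast list, Dcx was found in 61.0% and 57.7%, Sox11 in 100% and 97.7% and Sox4 in 85.4% and 79.2%. Neurod1 was found in 87.8% and 73.1%, Igfbpl1 in 53.7% and 58.5%, Draxin in 9.76% and 6.15% and Neurog2 in 2.44% and 6.92%. Cells were also thinned to 1000 UMIs within the runner library, a setting chosen after seeing the data. The groups with and without Nhlh2 stayed those called at full depth, so this grouping still depends on depth. Calb2 was then found in 75.6% of the 41 cells with Nhlh2 and 59.8% of the 127 without. Tac2 was found in 56.1% and 41.7%, and Eomes in 4.88% and 7.87%. The comparison by library rests on 1 library, since the cells with Nhlh2 all came from it.

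Reelin's receptors and its adaptor reached their highest levels in other classes than the cells that held Reln. Dab1, the intracellular adaptor, had 0 UMIs in the 154 Cajal-Retzius-like cells, which allows a level of up to 13 CPM over the class, and 103 UMIs elsewhere. Its level was 117 CPM in astrocyte-like cells (83.9 to 160) and 106 CPM in mature-neuron-like cells (68.9 to 155). These levels are 9.03-fold and 8.11-fold the level that 3 counts in the Cajal-Retzius-like class would give. The lower ends of both intervals lie above that level. By library, astrocyte-like Dab1 was at 154 CPM in runner, 77.0 CPM in aged and 80.5 CPM in control cells, from 27, 6 and 7 UMIs.

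Vldlr had 1 of its 98 UMIs in Cajal-Retzius-like cells, a fold of 0.131 against all other cells (0.00327 to 0.745). It was at 130 CPM in oligodendrocyte-like cells (98.5 to 169) and 93.3 CPM in mature-neuron-like cells (59.2 to 140), and the oligodendrocyte-like level was 125, 162 and 119 CPM in runner, aged and control libraries. Lrp8, which encodes ApoER2, was at 21.7 CPM in Cajal-Retzius-like cells and 29.1 CPM in all other cells, a fold of 0.746 whose interval holds 1 (0.236 to 1.81). In neuroblast-like cells it was at 139 CPM (105 to 180). Neuroblast-like Lrp8 was found in 43 of 171 runner, 2 of 12 aged and 3 of 32 control cells. Between the neuroblast-like and oligodendrocyte-like classes the intervals did not overlap for either receptor gene, with Lrp8 higher in neuroblast-like and Vldlr higher in oligodendrocyte-like cells. The Vldlr interval of oligodendrocyte-like cells did overlap with that of mature-neuron-like cells.

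**Figure D5:**
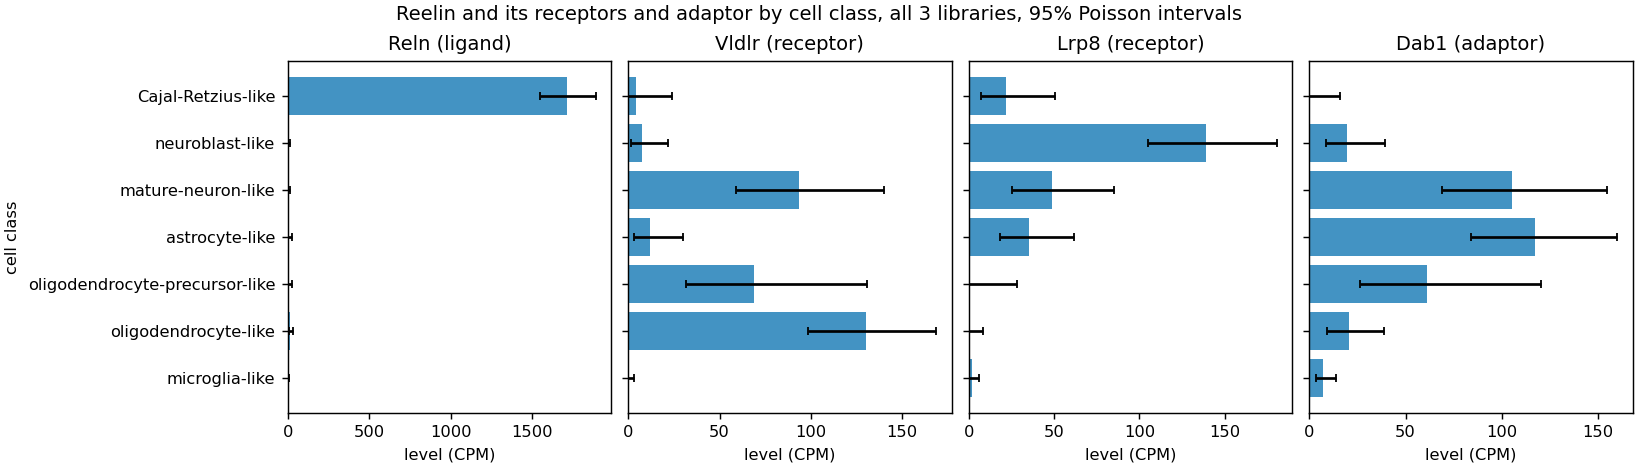
Level (CPM, linear axes with a different range in each panel) of Reln, the receptor genes Vldlr and Lrp8 and the adaptor gene Dab1 in 7 cell classes over all 3 libraries, with exact 95% Poisson intervals. Reln is high in Cajal-Retzius-like cells only, where Dab1 has 0 UMIs, and the receptors and Dab1 are highest in other classes.

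Of 34 listed genes of reelin signalling, 29 had at least 20 UMIs in the cells used. In Cajal-Retzius-like against other cells, 6 were past 1.5-fold higher and 16 past 1.5-fold lower, where 24.6% and 38% of all 11297 genes were, and the median fold was 0.478 against 0.899 over all genes. The 6 higher ones were Efnb2 (4.22-fold, an ephrin ligand, from 24 UMIs), Cdk5r1 (3.45-fold, the p35 activator of the kinase Cdk5), the kinase genes Src (1.89-fold, 0.720 to 4.20), Gsk3b (1.81-fold) and Akt1 (1.60-fold, 0.741 to 3.11), and the N-cadherin gene Cdh2 (1.76-fold). The intervals of Src and Akt1 hold 1. Gsk3b, Cdh2 and Cdk5r1 were at 338, 117 and 256 CPM in Cajal-Retzius-like cells and at 459, 149 and 265 CPM in neuroblast-like cells. The lowest were Dab1, the dynein regulator gene Nde1, Notch1 and the protease gene Adamts4, each with 0 UMIs in Cajal-Retzius-like cells. The fold interval of Adamts4, which had 37 UMIs in all, holds 1 (0 to 1.33). Fyn, a kinase of Dab1, had 4 UMIs there and 214 elsewhere, a fold of 0.237 (0.0640 to 0.615). Of the 214 UMIs, 122 were in oligodendrocyte-like cells.

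The second list held relatives and cofactors of the 4 transcription factors and other Cajal-Retzius factors. Of its 35 genes, 25 had at least 20 UMIs, and 9 were past 1.5-fold higher and 5 past 1.5-fold lower in Cajal-Retzius-like cells, where 24.6% and 38% of all genes were, with a median fold of 0.913 against 0.899 over all genes. Nr2f2 (18.7-fold), Ebf3 (16.9-fold), Zic1 (11.6-fold), Tbr1 (11.1-fold) and Emx2 (9.60-fold) led the list, but these transcription factor genes were on the list that named the cluster. Among the 19 genes that were not, 4 were higher and 5 lower, with a median fold of 0.768. The higher ones were Dmrta2 (8.11-fold), the LIM homeobox gene Lhx9 (6.67-fold), the close Nhlh2 relative Nhlh1 (3.96-fold, from 21 UMIs) and the LIM cofactor gene Ssbp2 (2.56-fold). Dmrta2, Lhx9 and Ssbp2 had their highest level in Cajal-Retzius-like cells. Nhlh1 did not, being at 21.7 CPM there and 39.7 CPM in neuroblast-like cells, from 5 and 16 UMIs. At the low end, the LIM-only gene Lmo3 had 0 UMIs in Cajal-Retzius-like cells. The LIM homeobox relative Lhx2 was at 0.722-fold and Trp53, which encodes p53, at 0.726-fold.

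Genes with the pattern most like that of Reln were ranked over 25 units, each a cell class in a library with at least 10 cells, by the correlation of log2(CPM + 20). The 10 highest of 7828 genes held the other 6 genes described here: Lhx1 (r = 0.983), Trp73 (r = 0.982), Lhx1os (r = 0.979), Ndnf (r = 0.978), Lhx5 (r = 0.935) and Nhlh2 (r = 0.921). The remaining 4 were Cd274 (r = 0.964), which encodes the immune ligand PD-L1, the calcium channel subunit gene Cacna2d2 (r = 0.962), Ankrd35 (r = 0.961) and Slc17a6 (r = 0.912), of which Cacna2d2 and Slc17a6 had served in naming the cluster. These correlations rest on 3 Cajal-Retzius-like units that lie far from the other 22, and units of 1 library share its depth. Cd274 was found in 41 Cajal-Retzius-like cells and 10 others, and Ankrd35 in 48 and 7.

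By overlap in single cells (cells with both genes over cells with either), the 10 genes nearest to Reln were Ndnf (74.8%), Snhg11 (72.7%), Lhx1os (53.2%), Nhlh2 (46.7%), Cacna2d2 (46.0%), Meg3 (41.1%), Lhx1 (41.1%), the chemokine gene Cxcl12 (39.5%), the dynein chain gene Dync1i1 (37.3%) and the tubulin regulator gene Stmn2 (37.1%). The lists by correlation and by overlap shared 5 genes. Overlap depends on how often a gene is detected, so Lhx5 and Trp73, each found in 49 cells, could not rank high.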

How the data were processed

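Whole UMI counts per gene and cell barcode were deposited by the authors as 1 table per library, without normalization. The tools and build per the submitters' processing notes were Cell Ranger 2.1.1, Seurat 3.1.0 and GRCm38, and the labels name version 2 of the 10x Chromium 3' chemistry. The sources used here give neither the annotation, the rule for calling barcodes nor the strand setting.

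Of 3328 runner, 2421 aged and 2356 control barcodes, 969, 393 and 514 had at least 200 genes and under 10% mitochondrially encoded UMIs, and Scrublet calls (expected rate 0.05, per library) removed 6, 2 and 2. Cells were clustered with Scanpy 1.11.5 and leidenalg 0.10.2 (2000 variable genes without the 7 genes, 30 components, 15 neighbours, resolution 1.0, no batch correction), and a cluster took the list with the most markers among its 10 leading genes if at least 3 markers reached 25% of cells and 2-fold. The thresholds for naming were chosen once the data had been seen. The Cajal-Retzius-like name rested on 5 such markers.

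UMIs summed per class and library were divided by all UMIs of that sum to give CPM, with exact Poisson intervals. Shares carry Clopper-Pearson intervals, CPM ratios exact conditional binomial intervals and differences Newcombe intervals, all at 95% and for counting error only. The call past 1.5-fold adds 0.5 counts to each library and needs 20 UMIs, and limits for a count of 0 use 3 counts. The interval code was tested on simulated data. Named genes outside the 7 were the 6 highest and 2 lowest of each list by fold, the receptors and Dab1, and the 10 nearest to Reln by each measure. A gene that this rule names is not reported here. Fyn, Adamts4, Lhx9, Nhlh1, Ssbp2, Lhx2, Trp53, Calb2, Tac2, Eomes and the other markers on the neuroblast list were named after their values were seen. Gene positions are from GENCODE M21 on GRCm38. The 7 genes and the lists were chosen with earlier results of these data known.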

Additional observations from a re-analysis of the deposited data

Results flagged for a closer look

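Barcodes above the mitochondrial limit were not used in the comparisons, yet some of them carried the same joint signal. Among barcodes of at least 200 genes with at least 10% mitochondrially encoded UMIs, at least 2 of the 7 genes were found in 17 of 1990 runner barcodes (0.854%), 18 of 1877 aged barcodes (0.959%) and 17 of 1789 control barcodes (0.950%). These shares lie above the limit that a count of 0 would allow, and over this whole range the 3 libraries were close to each other. Most of them lay just above the limit: between 10% and 30% at least 2 of the genes were found in 14 of 217 runner, 12 of 200 aged and 15 of 442 control barcodes, and from 30% upward in 11 of 4797 barcodes (0.229%) over all libraries, against 66 of 674 (9.79%) between 5% and 10%. With 1 library per group, no group could be searched for a sample that stood apart.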

How the results depend on the processing

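Without a mitochondrial limit, the Cajal-Retzius-like share was 2.98% in runner, 1.99% in aged and 3.09% in control libraries, and the share of cells with at least 2 of the 7 genes was 3.11% in runner, 2.12% in aged and 2.87% in control libraries, against 7.58% in runner, 7.93% in aged and 9.38% in control libraries with the limit. The control library no longer had the highest share of cells with at least 2 of the genes. Calling classes cell by cell gave Cajal-Retzius-like shares of 6.44% in runner, 5.88% in aged and 6.25% in control libraries. Genes past 1.5-fold in runner against control Cajal-Retzius-like cells numbered 407 of 1537 (26.5%). They numbered 1154 of 3108 (37.1%) with a minimum of 10 UMIs and 86 of 538 (16.0%) with 50. In aged against control cells the counts were 252 of 811 (31.1%), 739 of 1840 (40.2%) and 54 of 264 (20.5%). At resolutions 0.5 and 2.0 and with the 7 genes allowed in the clustering, the class held 154 cells, all 154 of them shared with the class described. Those settings therefore returned the reported values and are counted below as staying within the interval. Of 154 recomputed ratios between libraries, 151 stayed within the interval of the reported value, and the others were Ndnf in runner without a mitochondrial limit (1.10), Lhx1 in runner after thinning (1.84) and Nhlh2 in aged at a limit of 5% (0.913). The other kinds of result moved more often. Of the recomputed shares of UMIs of the 7 genes in Cajal-Retzius-like cells, 50 stayed within the reported interval and 20 moved out of it. For folds of Cajal-Retzius-like over other cells, 60 stayed, 13 moved and 0 reversed. For joint detection in Cajal-Retzius-like cells, 25 stayed and 5 moved. No paired analysis was possible because each group has 1 library. Levels in Cajal-Retzius-like cells rest on 13 to 204 UMIs per gene and library, and the interval of Trp73 in aged over control cells ran from 0.788 to 3.86.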
